A study of Mus musculus with 6 samples.

Results

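The neurotrophins and their receptors were examined in the vestibular epithelium of mice exposed to 3,3'-iminodipropionitrile (IDPN), an ototoxic nitrile that damages inner ear hair cells (HCs). The genes were the ligands Bdnf, Ntf3 and Ntf5 and the receptors Ntrk2, Ntrk3 and Ngfr. Each was found in the count table by its gene symbol, which gave 6 of 52636 genes. All 6 had at least 1 count in every library and all 6 were tested.

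Neurotrophins are secreted growth factors of nerve cells, made as precursors and cleaved before or after release. BDNF and neurotrophin-4/5 (the product of Ntf5) act through the receptor tyrosine kinase TrkB (Ntrk2), neurotrophin-3 (Ntf3) acts mainly through TrkC (Ntrk3), and the death-domain receptor p75NTR (Ngfr) binds all of them. In the inner ear, BDNF made by vestibular HCs and neurotrophin-3 support the ganglion neurons that innervate the sensory epithelium.

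The data were bulk RNA-seq libraries from male 129S1/SvImJ mice aged 2 to 4 months, 3 in the Control group and 3 in the IDPN group. IDPN mice drank water with 30 mM IDPN for 8 weeks, whereas the Control group had plain water to drink. A library was made from 1 animal, whose 2 utricles and 6 cristae (the sensory organs for linear and rotational head movement) were pooled, so organs and zones within them were not separated. cDNA was primed with oligo-dT under a SMART-seq2 protocol, which keeps no strand information and uses no molecular identifiers, so any error from counting alone is a lower limit. The animal codes in the labels begin alike in all Control mice and otherwise in IDPN mice, of which IDPN 2 and IDPN 3 have a beginning in common, and whatever that beginning marks cannot be told apart from the exposure.

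The libraries held from 40474847 to 43566332 estimated counts in total, and their size factors ran from 0.825 to 1.21. A total-count scaling moved the median log2-Fold_Change over 16418 genes up by 0.25, and fold changes are given relative to DESeq2's median-of-ratios scaling unless stated otherwise. Levels are normalized counts, that is, estimated counts divided by the size factor. A gene was called higher or lower when its Benjamini-Hochberg adjusted p (Padj) from the DESeq2 Wald test was under 0.05 and its fold change was above 1.5. By this rule 604 of 17650 genes tested were called lower (3.42%) and 410 higher (2.32%).

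Of the 6 genes, 3 fell in IDPN (Bdnf, Ntrk2 and Ntrk3) and none was called higher. Among the remaining genes, Ntf3, Ntf5 and Ngfr, 0 had an unadjusted DESeq2 p under 0.05, and edgeR also called 0 higher. EdgeR called the same 3 genes lower, against 2.19% of its 16310 genes tested, and DESeq2 with total-count size factors called 2 lower (Bdnf and Ntrk3), against 1.28% of 16712. Bdnf and Ntrk3 are among the genes that the study selected as lowered across all its comparisons, partly on these libraries, so their direction here is not independent evidence for that list. In bulk tissue, fewer cells of a type and less RNA per cell cannot be told apart, which touches every difference given here.

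Bdnf (ENSMUSG00000048482.14) lies on the plus strand at chr2:109674700-109727007 of GRCm38, and its 11 annotated transcripts use several alternative first exons joined to a shared coding exon. It gave 3486, 3313 and 3299 normalized counts in the Control libraries and 1125, 808.2 and 785.8 in the IDPN libraries. The groups did not overlap, and the lowest Control library stood 2.93 times above the highest IDPN library. Among all genes tested, every IDPN library lay below every Control library for 11.4%. The mean Bdnf level fell from 3366 ± 104 (SD, n = 3) to 906.2 ± 190 (SD, n = 3), that is, to 26.9% of Control. The log2-Fold_Change was −1.89 (SE 0.18, 95% interval −2.25 to −1.54) with a DESeq2 Padj of 1.48e-22, which placed Bdnf at rank 15 of all genes by p. With edgeR the change was −1.89 (adjusted p = 0.000543). Bdnf was tight among Control animals and looser after exposure, with a coefficient of variation of 3.09% in Control and 21% in IDPN. An antisense gene, Gm45346, shares 896 exon bases with Bdnf, and without strand its reads cannot be told apart from those of Bdnf. Gm45346 itself was assigned 10, 20 and 16 estimated counts in Control and 2, 3 and 1 in IDPN.

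**Figure D1:**
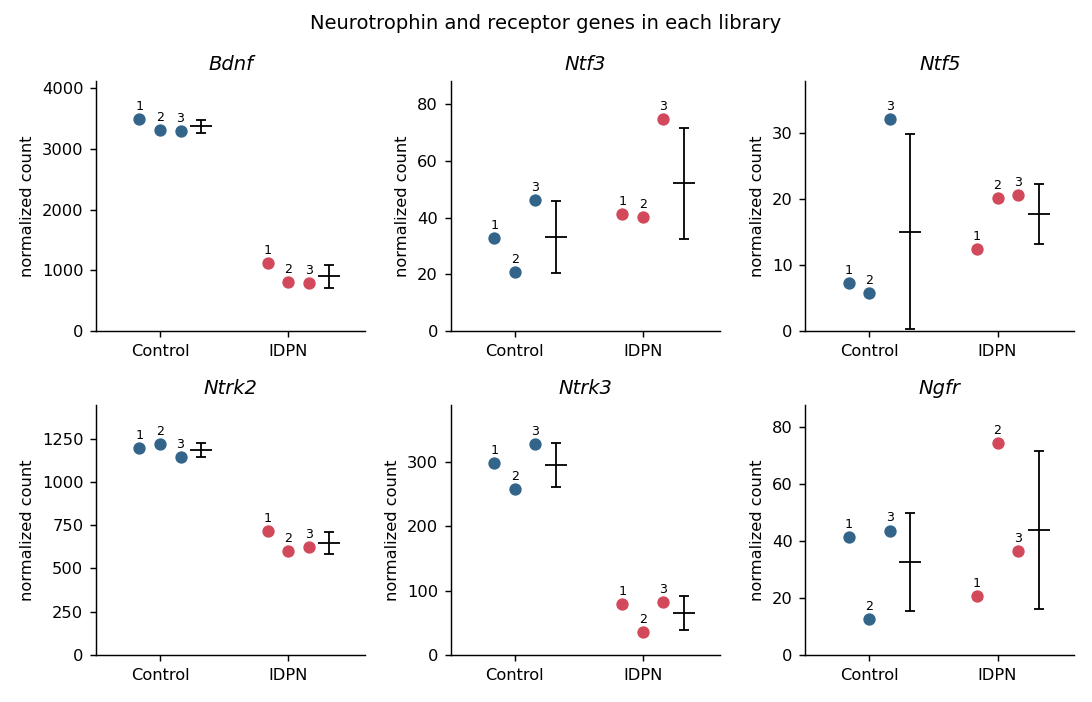
Normalized counts (vertical axes, each from 0) of the 6 genes in every library, Control in blue and IDPN in red, with the replicate number beside each point and the mean ± SD in black. Bdnf, Ntrk2 and Ntrk3 separate the groups without overlap, while Ntf3, Ntf5 and Ngfr overlap.

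Transcription of Bdnf in neurons is started at several promoters, some of which respond to activity through the factor CREB. RefSeq windows on GRCm38.p6, here restricted to the 250 bases before each start site, were found for 4 of the 6 genes, with 7 windows for Bdnf, 2 for Ntf3, and 1 each for Ntrk2 and Ngfr (Ntf5 and Ntrk3 were not matched). They were searched on both strands for the cAMP response element TGACGTCA, the related CACGTCA and the E-box CACGTG. Among 32851 windows of all genes these letters occurred in 1.55%, 1.65% and 6.02%. Of the 7 Bdnf windows 1 held a match, a CACGTCA that begins 37 bases before the start site, and no motif overlapped another in it. Of the 2 Ntf3 windows 1 held a CACGTG, and the windows of Ntrk2 and Ngfr held none of these letters. The Bdnf window is printed because Bdnf has the largest level of the 6 genes and the deposited counts sum over all of its promoters, so which promoter the remaining Bdnf RNA came from was not measured. The window lies at chr2:109692186-109692435 on the plus strand, inside the gene between its first and last start sites, holds no annotated Bdnf exon base, and has the motif in capitals.
Bdnf promoter window: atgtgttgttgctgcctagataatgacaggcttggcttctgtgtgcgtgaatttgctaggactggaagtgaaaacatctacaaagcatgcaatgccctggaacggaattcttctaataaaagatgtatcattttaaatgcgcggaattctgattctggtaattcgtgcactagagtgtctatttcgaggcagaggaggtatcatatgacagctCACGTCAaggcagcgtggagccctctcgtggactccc

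Ntf3 (ENSMUSG00000049107.13, minus strand, chr6:126101412-126166910) encodes neurotrophin-3, the TrkC ligand. It was a low-count gene, with 32.75, 20.78 and 46.26 normalized counts in Control and 41.38, 40.16 and 74.66 in IDPN. The groups overlapped. The means were 33.26 ± 12.8 (SD, n = 3) and 52.07 ± 19.6 (SD, n = 3), with a log2-Fold_Change of 0.64 (SE 0.49) and a DESeq2 Padj of 0.569. The 95% interval ran from −0.32 to 1.59, that is, from 0.802-fold to 3.02-fold, and so held changes of either sign.

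Ntf5 (ENSMUSG00000074121.3, plus strand, chr7:45413695-45417179) encodes neurotrophin-4/5, the other TrkB ligand, and was the lowest of the 6 genes. It gave 7.277, 5.771 and 32.03 normalized counts in Control and 12.41, 20.08 and 20.53 in IDPN. All IDPN libraries lay within the Control range, whose upper end was set by Control 3. The log2-Fold_Change was 0.21 (SE 0.79, 95% interval −1.34 to 1.76) with a DESeq2 Padj of 0.942. It was −0.12 without Control 1, −0.18 without Control 2 and 1.44 without Control 3.

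The ligand genes are homologous, and their reads could in principle be confused. The most alike stretches of read length, 76 bases of coding exon (GENCODE transcripts, GRCm38), are shown with the 41 bases that are identical in all 3 ligands in capitals. They come from chr2:109723989-109724064 for Bdnf on the plus strand, chr6:126101817-126101892 for Ntf3 on the minus strand and chr7:45415909-45415984 for Ntf5 on the plus strand.
Bdnf: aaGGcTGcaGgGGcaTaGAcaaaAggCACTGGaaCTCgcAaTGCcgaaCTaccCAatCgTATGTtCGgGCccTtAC
Ntf3: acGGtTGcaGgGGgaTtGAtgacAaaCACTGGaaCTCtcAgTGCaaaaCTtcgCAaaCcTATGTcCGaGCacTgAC
Ntf5: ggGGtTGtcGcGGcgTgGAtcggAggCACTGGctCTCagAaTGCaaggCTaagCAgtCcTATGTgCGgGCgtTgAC
The best window shared by Bdnf and Ntf3 was identical at 55 of 76 bases (72.4%), and the longest run common to any 2 ligands was 18 bases. No read of this length could therefore match 2 ligand transcripts exactly.

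Ntrk2 (ENSMUSG00000055254.15) lies on the plus strand at chr13:58806569-59133970 and encodes TrkB, the receptor of BDNF and neurotrophin-4/5. It gave 1196, 1220 and 1142 normalized counts in Control and 718.3, 600.4 and 625.3 in IDPN. The groups did not overlap, with the lowest Control library 1.59 times above the highest IDPN library. The mean fell from 1186 ± 39.7 (SD, n = 3) to 648.0 ± 62.2 (SD, n = 3), to 54.6% of Control. The log2-Fold_Change was −0.87 (SE 0.17, 95% interval −1.20 to −0.55), with a DESeq2 Padj of 1.47e-05 and an edgeR adjusted p of 0.00729. The size of the Ntrk2 change was the least firm of the 3 called, since total-count scaling gave −0.61 with a Padj of 0.118, and a test against a fold change of 1.5 rather than against no change gave a Padj of 1. Of the 7 annotated Ntrk2 transcripts with a complete coding sequence, the shortest codes 1398 bases and the longest 2463. The short forms encode TrkB without its kinase domain, and the gene-level counts do not separate them from the full-length receptor.

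Ntrk3 (ENSMUSG00000059146.12) lies on the minus strand at chr7:78175959-78738012 and encodes TrkC, the receptor of neurotrophin-3. It gave 298.4, 258.5 and 327.4 normalized counts in Control and 78.62, 35.14 and 82.12 in IDPN. It showed the largest fold change of the 6 genes, and its lowest Control library stood 3.15 times above its highest IDPN library. The mean fell from 294.8 ± 34.6 (SD, n = 3) to 65.3 ± 26.2 (SD, n = 3), that is, to 22.2% of Control. The log2-Fold_Change was −2.17 (SE 0.31, 95% interval −2.79 to −1.55), with a DESeq2 Padj of 1.17e-09 and an edgeR adjusted p of 0.00627. IDPN 2 was the lowest of the IDPN libraries, and without it the change was −1.88 with a DESeq2 Padj of 5.31e-09. The complete coding sequences of Ntrk3 also run from a short form of 1836 bases to 2592, and the counts do not separate them.

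Ngfr (ENSMUSG00000000120.6, minus strand, chr11:95568818-95587735, 1 transcript) encodes p75NTR, which binds mature neurotrophins weakly and their precursors with sortilin, and in nerve is known from Schwann cells after injury. It gave 41.24, 12.7 and 43.59 normalized counts in Control and 20.69, 74.3 and 36.4 in IDPN. The groups overlapped, and the highest and the lowest library differed 3.43-fold within Control and 3.59-fold within IDPN. The log2-Fold_Change was 0.42 (SE 0.60, 95% interval −0.75 to 1.59) with a DESeq2 Padj of 0.812. It was −0.20 without IDPN 2, the library with the most Ngfr.

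**Figure D2:**
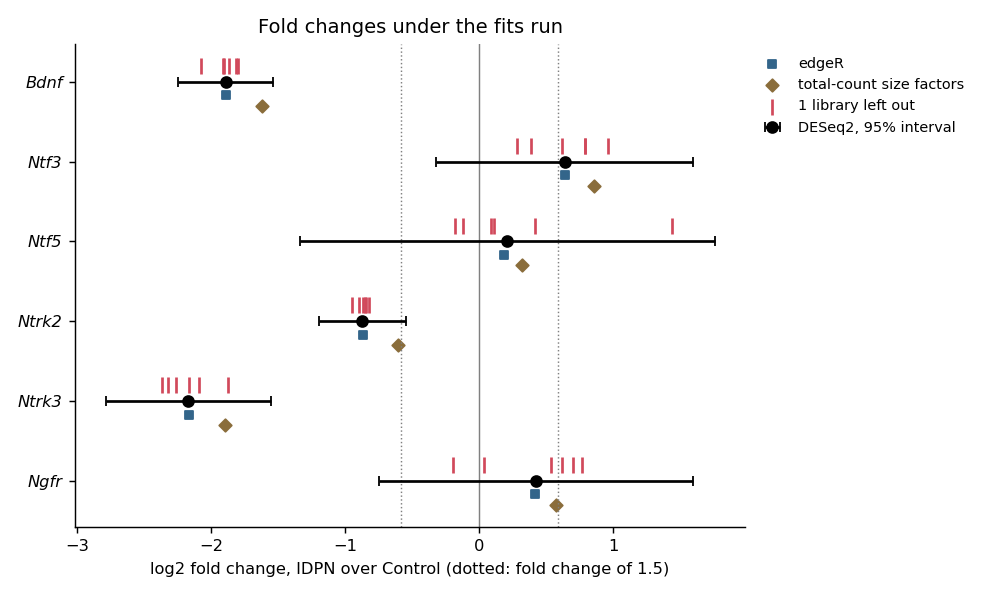
Log2 fold change of IDPN over Control (horizontal axis) for the 6 genes, from DESeq2 with its 95% interval in black, edgeR as blue squares, total-count size factors as brown diamonds and fits without 1 library as red ticks. The intervals of Bdnf, Ntrk2 and Ntrk3 lie below 0, and those of Ntf3, Ntf5 and Ngfr span it.

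The kinase region shows how alike the Trk receptors are. The 76-base coding stretches of highest identity, printed for the same reason as those of the ligands, bridge 1 intron in each gene. They span chr13:59054401-59060238 on the plus strand for Ntrk2 (coding bases 1822 to 1897) and chr7:78247388-78250765 on the minus strand for Ntrk3 (coding bases 1825 to 1900), and the 67 identical bases are in capitals.
Ntrk2: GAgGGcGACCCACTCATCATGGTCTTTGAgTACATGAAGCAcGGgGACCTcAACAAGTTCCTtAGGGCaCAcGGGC
Ntrk3: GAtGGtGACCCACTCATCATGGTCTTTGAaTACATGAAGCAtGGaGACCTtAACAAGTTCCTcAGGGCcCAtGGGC
The stretch was 88.2% identical, but the longest run common to both receptors was 23 bases. Across all pairs of the 6 genes the longest common run was 27 bases, between Ntrk2 and Ngfr, so a full read of 76 bases could not match 2 of these genes exactly. In Ntrk2 the stretch lies beyond base 1476, the end of the longest of the short coding forms.

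To compare the genes with each other, normalized counts were divided by the length of all annotated exons of the gene in kilobases (kb). In Control, Bdnf led with 541 ± 16.7 per kb, followed by Ntrk2 with 61.5 ± 2.06 (SD, n = 3 for each mean per kb here). Ntf3 had 19.4 ± 7.44 and lay below every Ntrk2 library. Ntrk3, Ngfr and Ntf5 came next with 9.77 ± 1.15, 9.43 ± 4.99 and 5.66 ± 5.56, and their libraries overlapped with each other and, for Ngfr, with Ntf3. After IDPN, Bdnf remained the highest of the 6 at 146 ± 30.5 per kb. Ntrk2 at 33.6 ± 3.22 and Ntf3 at 30.4 ± 11.4 now overlapped. Ntrk3 had the lowest mean of the 6 in IDPN at 2.16 ± 0.868 per kb, below every library of Ngfr (12.7 ± 8.00) and Ntf5 (6.66 ± 1.72). With the longest transcript in place of the exon length, the order of the means was the same in both groups, but the spreads separated further. Every Ntrk2 library then lay above every Ntf3 library in IDPN (68.7 to 82.2 against 27.1 to 50.3 per kb). Ntrk3 in Control (13.1 to 16.6 per kb) then lay above every Ngfr library (3.68 to 12.7) and still overlapped with Ntf5 (2.94 to 16.3).

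**Figure D3:**
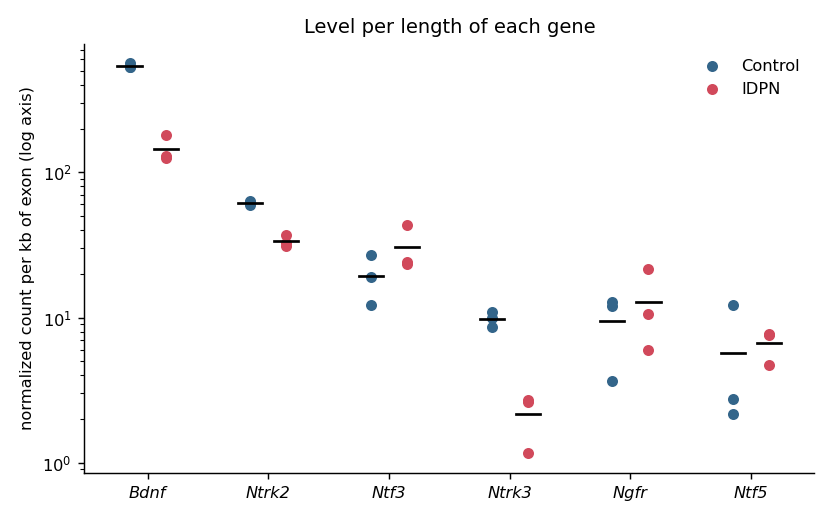
Normalized count per kb of exon (vertical log axis) of the 6 genes ordered by their Control mean, with 1 point per library, Control in blue, IDPN in red and the group means as black bars. Bdnf is the highest in both groups, and Ntrk3 overlaps with Ngfr and Ntf5 in Control on this scale and lies below them in IDPN.

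Ratios within a library depend on the size factors only through the added pseudocount of 1, which matters for low counts, and were compared by a two-sided exact permutation test, for which 3 against 3 libraries cannot give a p below 0.10. The log2 ratio of Ntrk2 over Ntrk3 was 2.00, 2.23 and 1.80 in Control and 3.18, 4.06 and 2.91 in IDPN. TrkB RNA thus stood further above TrkC RNA in every exposed animal, by 1.37 on the log2 scale (exact p = 0.10, adjusted p = 0.14 over 7 ratios). The log2 ratio of Bdnf over Ntf3 was 6.69 ± 0.562 in Control and 4.14 ± 0.691 in IDPN (SD, n = 3), a difference of −2.55 without overlap (exact p = 0.10, adjusted p = 0.14). The log2 ratio of Ngfr over Ntrk2 overlapped, with −5.33 ± 0.999 in Control and −4.04 ± 1.03 in IDPN (exact p = 0.30, adjusted p = 0.35).

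HC genes were lower in these IDPN libraries as well, so the levels of cell type markers are given beside the called genes. Of 19 HC marker genes tested, 9 fell (among them the transcription factors Pou4f3 and Gfi1 and the mechanotransduction channel gene Tmc1). The other 10 were not called, among them the HC myosin gene Myo7a (log2-Fold_Change 0.01, DESeq2 Padj 0.987). The median log2-Fold_Change was −0.68 against 0.02 over all genes tested. Summed normalized counts of the HC markers were 92700 to 115600 in Control and 57380 to 69990 in IDPN. Markers of type I HCs, the HCs enclosed by calyx endings, fell in 8 of 9 (median −1.83), and those of type II HCs in 2 of 7 (median −0.42). The called type I markers are all among the genes that the study selected as lowered in these and its other libraries, so the type I count and median were largely set by that selection and are no independent measure of type I HCs. Under total-count scaling the HC median was −0.44 with 4 of 19 lower, the type I median −1.55 with 7 of 9 lower, and the type II median −0.16 with none lower, although 2 had an unadjusted DESeq2 p under 0.05 in the lower direction. Bdnf, Ntrk2 and Ntrk3 thus fell beside HC markers, and what part of their change went with HC content was not tested.

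Set against the HC markers of the same library, Bdnf and Ntrk3 still lay lower in every IDPN library than in any Control library. Relative to the mean log2 level of the 19 HC markers with a mean of at least 50 normalized counts, Bdnf stood at 1.30, 1.13 and 0.95 in Control and at 0.09, −0.24 and −0.36 in IDPN. The difference was −1.30 (exact p = 0.10, adjusted p = 0.14). Ntrk3 relative to the same markers was −2.39 ± 0.155 in Control and −4.02 ± 0.616 in IDPN (SD, n = 3), a difference of −1.63 with the same p-values. No such ratio was computed for Ntrk2, whose log2-Fold_Change was −0.87 beside the HC marker median of −0.68. For Bdnf, which the paper lists as selective for type I HCs in humans, no ratio to type I markers is given here. The mean log2 level of 9 type I markers, a list largely set by the study's selection, was 12.29 in Control and 10.66 in IDPN. That difference was −1.63, beside a log2-Fold_Change of −1.89 for Bdnf.

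Neuron markers were sparse. Of 17 listed genes 6 (Nefh, Tubb3, Stmn2, Gap43, Elavl3 and Elavl4) had a mean under 10 normalized counts. Of the 14 tested, 4 fell (the neurofilament genes Nefl and Nefm, and Snap25 and Syt1, which vestibular HCs may also express) and 1, the sodium channel gene Scn9a, rose, with a median of −0.42. Scn9a had a mean of only 1.855 normalized counts in Control and 22.17 in IDPN. Its call was lost without IDPN 1 or IDPN 3. Summed neuron markers were 7267 to 7303 in Control and 4764 to 4901 in IDPN. Ntrk3 was set against the 9 neuron markers with a mean of at least 50. These leave out the 6 sparse genes and include Snap25 and Syt1, so they do not measure neuron content alone. The log2 ratio was −0.37 ± 0.189 in Control and −2.13 ± 0.640 in IDPN (SD, n = 3). It differed by −1.76 without overlap (exact p = 0.10, adjusted p = 0.14). Total-count scaling left 0 of the 14 neuron markers lower by DESeq2, with 1 at an unadjusted p under 0.05 in that direction, while edgeR called 2 of 12 lower.

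The Schwann cell marker with the highest mean was S100b, at 162000 normalized counts in Control and 82560 in IDPN. The myelin genes Pmp22 (67030 and 42110) and Mbp (60860 and 40280) came next. Summed counts of the Schwann cell markers ran from 209800 to 404100 in Control and from 180500 to 185800 in IDPN. Of 11 tested, Sox10 rose and S100b fell. Ngfr relative to these 11 markers was −7.16 ± 0.922 in Control and −6.59 ± 0.849 in IDPN, with overlap (SD, n = 3, exact p = 0.50, adjusted p = 0.50). Of 16 supporting cell markers 1 rose (Sox10 again) and 1 fell (Gjb6), with a median of −0.29. Of 12 macrophage markers 1 rose (Lyz2, median 0.35), and of 10 endothelial markers 1 fell (Kdr, median −0.01). No stromal marker of 10 was called by DESeq2 or edgeR, although with DESeq2 1 was higher and 1 lower at an unadjusted p under 0.05. With total-count scaling DESeq2 called 1 stromal and 1 endothelial marker higher and no endothelial marker lower.

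**Figure D4:**
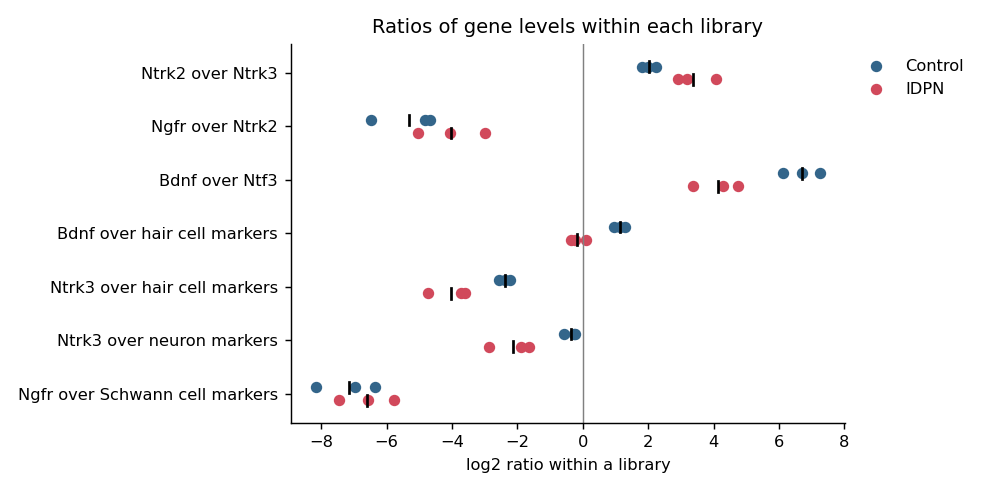
Log2 ratios within each library (horizontal axis) for the 7 ratios named at the left, with 1 point per library, Control in blue, IDPN in red and group means as black bars. The groups separate for 5 ratios and overlap for Ngfr over Ntrk2 and Ngfr over Schwann cell markers.

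The genes whose profile over the 6 libraries was nearest to each called gene were found by the root-mean-square distance of log2 levels centred on the Control mean, among 11197 genes. For Bdnf these were Xirp2, which encodes an actin-binding protein of HC stereocilia (distance 0.081), and Wwox (0.109), Adam11 (0.137) and Nek2 (0.148). Ntrk2 was nearest to Ccdc33 (0.061), Lrrn2 (0.077), Trappc9 (0.079), Otof, which encodes the calcium sensor of HC synaptic release (0.092), and Erich3 (0.094). Ntrk3 had no neighbour as close, and its nearest genes were Dpp10, which encodes an accessory subunit of potassium channels (0.167), and Dpyd (0.231), Fbxw7 (0.309), Cntn4 (0.323) and the BK potassium channel gene Kcnma1 (0.341). All of the genes named here were called lower, and Xirp2, Adam11, Nek2, Ccdc33 and Fbxw7 belong to the list that the study selected as lowered. These distances describe 6 shared libraries, in which any gene with a similar fold change lies near.

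The wider pathway was described by its counts. Of 213 genes in 7 lists of neurotrophin biology, 191 were tested, of which 11 were called lower and 7 higher, against 3.42% and 2.32% of all genes tested. With total-count scaling the split was 1 lower and 9 higher. The median log2-Fold_Change of the 191 was 0.14, against 0.02 over all genes tested. EdgeR called 4 lower and 1 higher.

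Among other receptors of the pathway, the sortilin-family receptors Sorcs2, a partner of p75NTR for precursor forms, and Sorcs1 were called lower. Sorcs2 went from 810.3 ± 54.4 to 528.6 ± 76.4 (SD, n = 3; log2-Fold_Change −0.62, DESeq2 Padj 0.0195). Sorcs1 went from 338.7 ± 106 to 185.9 ± 46.3 (SD, n = 3), with overlap (log2-Fold_Change −0.87, DESeq2 Padj 0.0447). Neither call held with edgeR (adjusted p = 0.0558 for Sorcs2 and 0.134 for Sorcs1) or with total-count size factors, and over the 12 alternatives Sorcs2 was called in 5 and Sorcs1 in 4. Sort1, which encodes sortilin, had 1470 ± 147 and 1755 ± 210 (SD, n = 3), with a DESeq2 Padj of 0.486.

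Of 21 genes for the cleavage, storage and release of neurotrophin precursors, 15 were tested. Those lower were Scg3 and Chgb, which encode granins of dense-core vesicles, and Cadps2, which promotes dense-core vesicle release. Scg3 fell from 939.6 ± 179 to 531.8 ± 35.2 (SD, n = 3), with a log2-Fold_Change of −0.82 and a DESeq2 Padj of 0.00108. Chgb, which is also on the list of type I HC markers, changed by −0.91 (DESeq2 Padj 0.0172) and Cadps2 by −0.93 (DESeq2 Padj 0.0265). Scg3 was called in 10 of 12 alternatives, Chgb in 5 and Cadps2 in 4, and the last 2 were lost with edgeR (adjusted p = 0.0728 and 0.0996) and with total-count size factors. Plau, which encodes the protease urokinase, was called higher at low counts of 3 to 8 in Control and 23 to 55 in IDPN. The list's median was −0.15.

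Signalling genes below the receptors showed few calls. Of 61 Trk adaptors and kinases, Rps6ka1 (the ERK-activated kinase RSK1) was higher at 0.95 on the log2 scale (DESeq2 Padj 0.00608) and Pik3r1 (a regulatory subunit of PI3-kinase) lower at −0.59 (DESeq2 Padj 0.00999), with a list median of 0.11. Rps6ka1 was called in 6 of 12 alternatives and Pik3r1 in 5, and edgeR called neither. The edgeR adjusted p was 0.0747 for Rps6ka1. For Pik3r1 it was 0.0389, with a log2-Fold_Change of −0.584 that fell just short of the fold threshold. Of these 61 genes, 11 were higher and 4 lower at an unadjusted DESeq2 p under 0.05. Of 33 genes for p75NTR adaptors and partners, 3 were lower and the median was 0.00. Mapk10, which encodes the neuronal kinase JNK3, fell from 633.6 ± 78.7 to 298.5 ± 47.2 (SD, n = 3; log2-Fold_Change −1.09, DESeq2 Padj 1.42e-05). Ndn, which encodes necdin, a binding partner of p75NTR, fell by 0.81 on the log2 scale (DESeq2 Padj 0.000369), and Rtn4, which encodes Nogo, fell by 0.62 (DESeq2 Padj 0.00893). Mapk10 and Ndn were each called in 10 of 12 alternatives and Rtn4 in 5, but not with edgeR (adjusted p = 0.0543). In this list DESeq2 called 0 genes higher, 4 had an unadjusted p under 0.05 in that direction, and edgeR also called 0.

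Of 29 regulators of Bdnf transcription tested, 1 was called. Mef2d, an activity-regulated factor, was higher with 349.3 ± 112 in Control and 654.6 ± 116 in IDPN (SD, n = 3; log2-Fold_Change 0.90, DESeq2 Padj 0.01). The call was lost with edgeR (adjusted p = 0.0809) and without Control 1, Control 2, IDPN 2 or IDPN 3, and held in 6 of 12 alternatives. The list's median was 0.17. DESeq2 called 0 of them lower, with 0 also at an unadjusted p under 0.05 in that direction and 0 by edgeR.

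Of 34 genes that Trk signalling and CREB are known to induce, 25 were tested, with a median of 0.91, and only Klf10 and Mcl1 were called. Arc, Egr1, Fos, Junb, Nr4a1 and Dusp5 had no Padj in the main fit and so were not among those tested. They were called higher when IDPN 1 was left out, and all but Nr4a1 also when IDPN 3 was left out. Without IDPN 2 none of them was called. Klf10, an early-response transcription factor, gave 1058, 796.4 and 903.0 normalized counts in Control and 1887, 4204 and 1889 in IDPN, without overlap (log2-Fold_Change 1.53, SE 0.27, DESeq2 Padj 2.40e-06). Mcl1, which encodes a survival protein of the Bcl-2 family, was raised mainly in IDPN 2, with 523.9, 1657 and 898.7 in IDPN and 376.0, 481.3 and 548.0 in Control (log2-Fold_Change 1.13, DESeq2 Padj 0.00999). Klf10 was called in 11 of 12 alternatives and Mcl1 in 5, but not with edgeR (adjusted p = 0.121). The list depended on single IDPN animals. Its median was 0.22 without IDPN 2, with 1 of 31 genes higher, whereas 11 of 33 were higher without IDPN 1 and 7 of 33 without IDPN 3.

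Of 21 genes for the GDNF family and other trophic factors, Ptn and Nenf were lower and Gfra3 higher, with a median of 0.12. Ptn, which encodes the heparin-binding factor pleiotrophin, was the most abundant, at 51220 ± 15100 in Control and 26540 ± 4190 in IDPN (SD, n = 3; log2-Fold_Change −0.95, DESeq2 Padj 0.000616). Nenf, which encodes neudesin, fell by 0.76 on the log2 scale (DESeq2 Padj 0.00219). Ptn was called in 10 of 12 alternatives, but not with edgeR (adjusted p = 0.0795), and Nenf in 9. Gfra3, a co-receptor of the GDNF family, was at 0 to 10 estimated counts in Control and 23 to 51 in IDPN.

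**Figure D5:**
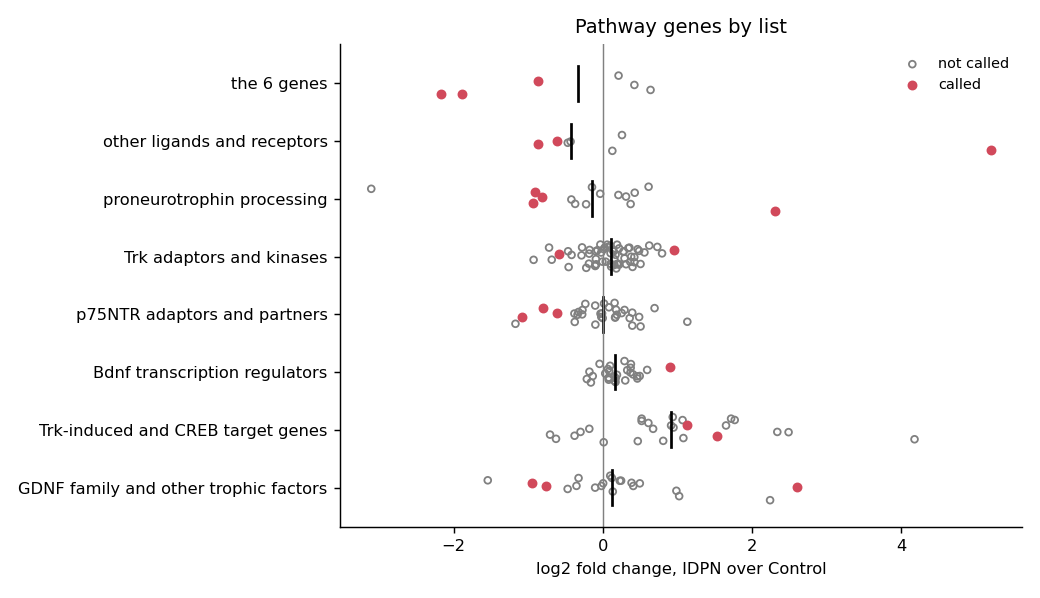
Log2 fold change of IDPN over Control (horizontal axis) for the 6 genes and the tested genes of the 7 pathway lists, with called genes in red, others as open circles and list medians as black bars. Bdnf, Ntrk2 and Ntrk3 are the called points in the top row, and most pathway genes lie near 0.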

How the data were processed

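RNA-seq of the vestibular epithelium was analysed in 3 Control and 3 IDPN libraries. The authors aligned paired reads of 76 bases with STAR (2.5.3a) to GRCm38 and estimated gene counts with RSEM (2.3.0), and deposited the estimated counts (RSEM's expected counts) as whole numbers, neither normalized nor filtered. A read that fits several genes is shared out between them by RSEM.

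The Wald test of DESeq2 (version 1.42.0, R 4.3.3) was run over the whole table, with Padj under 0.05 and a fold change above 1.5 as the threshold and with independent filtering. Alternatives were the edgeR quasi-likelihood test (edgeR 4.0.16), total-count and TMM size factors, at least 10 counts in 3 libraries, no independent filtering, a test against a fold change of 1.5, and leaving out each library. Each replicate is 1 animal, and whether animals shared a litter or cage is not given in the sources used here. The total count per library was 40474847 to 43566332, and genes with few counts had wide intervals. Ratios used log2(normalized count + 1). The code was tested on simulated data.

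The 6 genes, the pathway lists and the marker lists were chosen with earlier results of these data known. The genes named were the 6, Sort1, every called pathway gene whose normalized counts averaged 50 or more, and, for each called member, the 5 nearest genes with a mean of at least 100. Some genes that met this rule are not reported here. Other genes named, such as Plau, Gfra3 and single markers, were named after their values were seen. Gene coordinates and lengths came from a later GENCODE release on the same build, with a length for 99.6% of genes, and promoter windows from RefSeq. Protein sequences were not used here.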

Additional observations from a re-analysis of the deposited data

How the results depend on the processing

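Bdnf and Ntrk3 were called lower under all 12 alternatives, with log2-Fold_Changes from −2.07 to −1.62 and from −2.37 to −1.88. Ntrk2 was lower in all 12 and lost its call in 2, with −0.61 (Padj 0.118) under total-count size factors and −0.87 (Padj 1) when tested against a fold change of 1.5. Leaving out each library gave −0.18 to 1.44 for Ntf5 and −0.20 to 0.77 for Ngfr, neither of them called. The pathway genes lower, 11 with DESeq2, were 4 with edgeR and 1 with total-count size factors, and those higher, 7 with DESeq2, were 1 with edgeR. Tested against a fold change of 1.5, DESeq2 called 0 in either direction, with 1 lower and 5 higher at an unadjusted p under 0.05. Without a library the counts ranged from 6 to 8 lower and from 1 to 15 higher. Leaving out Control 1 gave 6 lower and 2 higher, and leaving out Control 2 gave 7 lower and 1 higher. Leaving out IDPN 1 gave 15 higher, IDPN 2 gave 2 higher, and IDPN 3 gave 6 lower. The cause was not tested. The ratios kept their direction under all their alternatives. For Ntrk3 over neuron markers, lowering the minimum mean to 10 gave −2.28. With 3 libraries a group, the depth of Ntf3, Ntf5 and Ngfr (5 to 80 estimated counts) limited what could be detected. No paired analysis was possible because the labels give the animals no replicate numbers shared between the groups.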
